A study of Mus musculus with 12 samples.

Results

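The 40 genes described here encode the sarcomere's scaffold and the machinery that turns a muscle's electrical signal into calcium release. They were chosen by symbol, and each was represented by the brightest of the probe sets annotated to it. All 40 were above the filter on low signal and so were among the 11345 genes tested. Muscle RNA of 12 mice was hybridised to one-colour Affymetrix arrays, 3 mice in each of 4 groups: GPR120 knockout (KO) on a high fat diet (HFD), KO on a normal diet (ND), wild type (WT) on HFD and WT on ND. GPR120, the product of Ffar4, senses long-chain fatty acids at the plasma membrane. Every mouse was 16 weeks old, the strain background was mixed 129/Sv and C57BL/6 in all groups, and the labels name no further allele or agent. The sources used here do not give the muscle sampled, the sex of the mice, or the make and duration of the diets. Mouse numbers fell in a different range in each group, so neither genotype nor diet can be told apart from the mice's cohort.

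A sarcomere is the repeating unit of contraction. Its actin thin filaments are anchored at the Z-disc, its myosin thick filaments are linked at the M-band, and titin spans from one to the other. An action potential entering the transverse tubules is sensed by the Cav1.1 calcium channel, which opens the ryanodine receptor of the sarcoplasmic reticulum in the junctions between both membranes. Calcium then binds the thin filament and is pumped back by SERCA, an ATPase whose activity small membrane peptides such as sarcolipin restrain.

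The tissue label was checked first. All 8 skeletal muscle markers were measured and averaged between 12.72 and 13.97 on the log2 scale. Of 7 heart markers, 5 were below the filter, and the other 2, Myh6 and Tnnt2, averaged 4.60 and 5.84. The targeted gene could not check the genotype labels, because the single Ffar4 probe set lay below the filter of 3.78 in every group's mean (2.31 in KO HFD, 2.48 in KO ND, 1.41 in WT HFD and 0.23 in WT ND). Array medians were 3.87 to 4.17. The tissue was bulk muscle, so fewer cells of a type and less RNA per cell cannot be told apart.

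Members varied little between the mice of a group. Member means ran from 4.84 for Pln to 13.68, and the highest signal on each array was 13.8 to 14.1. Whether signals so close to that upper end were compressed was not tested. The median SD within a group was 0.11 over the members and 0.20 over all genes tested, at median log2 signals of 12.3 and 6.84, so the members were much brighter than the typical gene. Most members moved little. The 95% interval of the diet difference lay within 1.5-fold (0.58 on the log2 scale) for 33 of 40 members in KO and 30 of 40 in WT, against 41.1% and 39.9% of all genes. For the genotype difference it did so for 34 members on HFD and 33 on ND, against 44.9% and 46.7% of all genes. A gene was called at a limma adjusted p under 0.05, adjusted over all 11345 genes.

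Diet differences of single genes were called in WT. Of the 40 members, 2 rose and 1 fell in WT HFD against WT ND, where 6.06% of all genes were called (3.07% higher and 2.99% lower). That share of members was close to the background. Tmod4 and Cacna1s rose, and Pdlim3 fell. In KO, no member was called for diet by limma, where 4.54% of all genes were, and 3 members had an unadjusted p under 0.05, where 19.9% of all genes did. In WT, 12 members did, where 23% of all genes did. The median diet difference over the members was 0.05 in KO and 0.11 in WT, and over all genes 0.05 in KO and 0.04 in WT. Averaged over both genotypes, 3 members rose with HFD (Tmod4, Jph2 and Trdn) and none fell, where 13.7% of all genes were called and 7.49% were higher. The share of members called was below the background there.

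**Figure D1:**
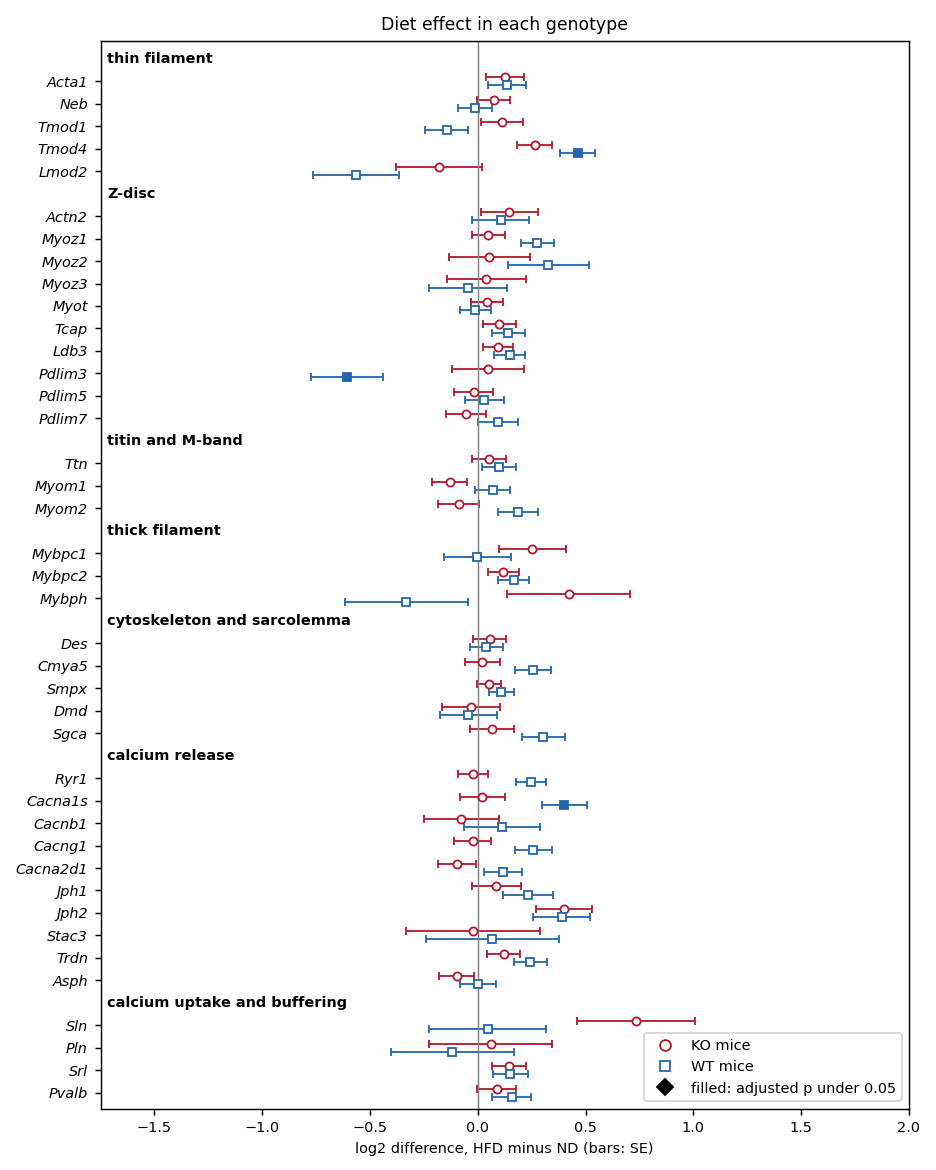
Log2 difference of HFD minus ND for the 40 members, grouped by role, in KO (red circles) and WT (blue squares), with bars of 1 SE and filled symbols for an adjusted p under 0.05. Tmod4 and Cacna1s in WT lie right of 0 and Pdlim3 in WT lies left of it, while no KO symbol is filled.

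Separation of the mice gave a wider picture than the calls. In WT, 15 members had all 3 HFD mice above all 3 ND mice and 1 had them below, which held for 15.7% and 11.1% of all genes. In KO, 4 members were higher without overlap and 1 lower, against 16.3% and 10.2% of all genes. The WT count depended on the scaling between arrays: 10 members were higher after quantile normalization, where 15.5% of all genes were, and 9 after median centring, where 11.7% were. Beside these counts, the 3′ over 5′ signal ratio of control transcripts, a measure of RNA integrity, was 0.16 ± 0.13 in KO HFD, 0.07 ± 0.06 in KO ND, 0.18 ± 0.02 in WT HFD and -0.02 ± 0.09 in WT ND on the log2 scale (mean ± SD, n = 3). It did not overlap between the WT diets, lying between 0.16 and 0.20 in WT HFD and between -0.08 and 0.09 in WT ND. When the model included that ratio, 1 member kept its call for diet in WT, Tmod4. Over all genes, the number called for diet in WT went from 687 to 186 with the ratio in the model. Diet and the ratio went together in WT, so this fit cannot tell them apart and the lost calls cannot be assigned to either.

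Promoter sequence is given for Tmod4 and Mybph. These members were called in an averaged effect, and their mice did not overlap between its sides in the deposited values. Each sequence holds the 250 bases before the transcription start in RefSeq (build GRCm38.p6), on the plus strand: chr3:95124264-95124513 for Tmod4 and chr1:134193198-134193447 for Mybph. Capitals mark matches to CAGCTG, an E-box of the kind bound by myogenic bHLH factors, and to TATAAA on either strand (CAGCTG reads the same on both strands, and no match overlaps another).
Tmod4: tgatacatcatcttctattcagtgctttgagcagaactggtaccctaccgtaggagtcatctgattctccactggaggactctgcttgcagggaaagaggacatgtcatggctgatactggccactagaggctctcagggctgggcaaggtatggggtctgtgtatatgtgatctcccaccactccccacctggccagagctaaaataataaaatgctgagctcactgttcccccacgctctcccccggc
Mybph: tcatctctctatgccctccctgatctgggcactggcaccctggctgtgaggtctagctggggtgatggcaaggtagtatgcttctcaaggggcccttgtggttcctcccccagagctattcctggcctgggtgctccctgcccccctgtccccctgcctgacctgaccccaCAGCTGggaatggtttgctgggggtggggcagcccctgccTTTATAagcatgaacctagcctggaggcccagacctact
The Mybph promoter held 1 CAGCTG, 79 bases before the start, and 1 TATAAA on the reverse strand (TTTATA), 39 bases before it. Neither motif nor the MEF2 consensus was found in the Tmod4 window. CAGCTG occurred in 9 of the 33 RefSeq promoters found for 27 members (27.3%) and in 13% of all 32851 promoters, TATAAA in 15.2% and 12.4%, and the MEF2 consensus in 12.1% and 2.92%. These are matches of letters and not binding sites.

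The thin filament held the member with the smallest adjusted p for diet. Tropomodulin 4 (Tmod4) caps the pointed ends of actin filaments in skeletal muscle. Its log2 signals were 12.38, 12.47 and 12.53 in KO HFD and 12.09, 12.26 and 12.23 in KO ND. They were 12.58, 12.53 and 12.65 in WT HFD and 12.28, 12.04 and 12.05 in WT ND. All 6 HFD mice were above all 6 ND mice, which was true of 1 of 40 members and 2.58% of all genes. After median centring it was true of 0 members and 0.846% of all genes. Tmod4 rose by 0.36 ± 0.06 (SE) averaged over genotypes (limma adjusted p = 0.00167) and by 0.46 ± 0.08, or 1.38-fold, in WT (adjusted p = 0.00694). The call in WT held under all 22 alternatives and in each genotype the HFD mice were higher, with 0.26 ± 0.08 in KO (adjusted p = 0.0844). The difference between the diet effects was not called (interaction -0.20, limma adjusted p = 0.568).

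No other thin filament gene was called. Leiomodin 2 (Lmod2), which nucleates and lengthens actin filaments at the pointed end, had 10.90, 10.64 and 10.96 in KO HFD and 11.11, 10.90 and 11.02 in KO ND. In WT it had 10.59, 11.12 and 10.42 on HFD and 10.82, 11.68 and 11.32 on ND. The diets overlapped in both genotypes. Its averaged difference was -0.37 ± 0.14 and was not called (limma adjusted p = 0.0975), but it was called without WT ND mouse 1 (-0.49, adjusted p = 0.0202) or WT HFD mouse 2 (-0.48, adjusted p = 0.0368). In WT alone it was -0.56 ± 0.20 (adjusted p = 0.111), and was called without WT ND mouse 1 (-0.79, adjusted p = 0.0234). Tropomodulin 1 (Tmod1) was lower in all KO ND mice than in all WT ND mice, by a log2 difference of -0.34 ± 0.10 that was not called (limma adjusted p = 0.177). Acta1, skeletal alpha-actin, and Neb, the giant ruler protein nebulin, had averaged diet differences of 0.13 and 0.03, neither called.

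At the Z-disc, 1 of 10 members was called for diet in WT. Pdlim3 encodes ALP, a PDZ and LIM domain protein that binds alpha-actinin. Its log2 signals were 12.98, 12.25 and 12.40 in KO HFD and 12.67, 12.39 and 12.44 in KO ND. In WT they were 11.94, 11.94 and 11.92 on HFD and 12.30, 12.48 and 12.84 on ND. The WT HFD mice were thus below all 9 others, a position held by 1 of 40 members and 1.23% of all genes. Pdlim3 fell by 0.61 on the log2 scale in WT HFD, or 1.52-fold (SE 0.17, limma adjusted p = 0.0483), and in KO the difference was 0.05 ± 0.17. On HFD the KO mice were higher by 0.61 ± 0.17 without a call (limma adjusted p = 0.0995), in a comparison that shares the WT HFD mice. The interaction was 0.65 ± 0.24 (limma adjusted p = 0.363). The WT call was at the threshold: it was kept without KO HFD mouse 1, KO HFD mouse 2 or WT ND mouse 1, and lost without any of the other 9 mice (adjusted p 0.0533 to 0.178). It was also lost with no filter on low values, with the mean of all probe sets, without the intensity trend and when the 3′ over 5′ ratio was in the model (adjusted p 0.0533 to 0.131). Averaged over genotypes the diet difference was -0.28 ± 0.12, not called, but it was called without KO HFD mouse 1 (-0.39, adjusted p = 0.0153).

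The remaining 9 Z-disc members were not called in any comparison. Myoz1, a calsarcin that tethers the phosphatase calcineurin to the Z-disc in fast fibres, came closest, with 0.28 ± 0.08 for diet in WT (limma adjusted p = 0.0517) and 0.05 ± 0.08 in KO. It was called there with a stricter filter (adjusted p = 0.0453) and without KO ND mouse 2 or KO HFD mouse 1 (adjusted p = 0.0319 and 0.0461), and averaged over genotypes with array weights (0.17, adjusted p = 0.0397) or without KO ND mouse 2 (0.20, adjusted p = 0.0258). Its 3 WT HFD mice (13.07, 13.12 and 13.26) were above all others under each of the 3 scalings. As deposited, 3 of 40 members (Myoz1, Smpx and Cacng1) and 2.31% of all genes held that position. A dimmer Myoz1 probe set gave diet differences of -0.01 in WT and -0.31 in KO, neither called. Tcap, which caps the end of titin, and Ldb3, an alpha-actinin-binding PDZ protein, were also higher without overlap in WT HFD, by 0.14 and 0.15, neither called. Actn2, the alpha-actinin that cross-links actin at the Z-disc, differed by 0.13 ± 0.09 averaged over genotypes. The averaged diet differences of Myoz2, Myoz3, Myot, Pdlim5 and Pdlim7 were 0.19, -0.00, 0.02, 0.01 and 0.02. Over the 10 genes the median diet difference was 0.05 in KO and 0.10 in WT.

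Titin and both M-band genes gave no call. Titin (Ttn) had 13.47, 13.71 and 13.70 in KO HFD, 13.60, 13.68 and 13.44 in KO ND, 13.63, 13.65 and 13.71 in WT HFD, and 13.55, 13.53 and 13.62 in WT ND. The WT diets did not overlap and the KO diets did. The averaged diet difference was 0.08 ± 0.06 (limma adjusted p = 0.395). Myomesin 1 (Myom1) and M-protein (Myom2) bridge neighbouring thick filaments. The 3 KO HFD mice had the lowest Myom1 signals of the 12 (12.25, 12.21 and 12.24) under every scaling tried. As deposited, 1 of 40 members and 1.49% of all genes held that position. The diet difference of Myom1 was -0.13 ± 0.08 in KO and 0.07 ± 0.08 in WT, and that of Myom2 was -0.09 ± 0.09 in KO and 0.19 ± 0.09 in WT. Their interactions, -0.20 and -0.28, were not called (limma adjusted p = 0.568 and 0.488). Dimmer Myom2 probe sets differed in size. One gave diet differences of -0.41 in KO and 0.36 in WT, with an interaction of -0.77, none called. Another gave -0.04 in KO and 0.10 in WT, with an interaction of -0.14, none called.

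The called genotype difference was in a thick filament gene. Mybph encodes myosin-binding protein H, a relative of the myosin-binding proteins C that associates with thick filaments. Its log2 signals were 12.08, 10.98 and 11.60 in KO HFD and 9.45, 10.38 and 10.14 in WT HFD. On ND they were 11.16, 10.98 and 11.25 in KO and 9.90, 10.23 and 10.82 in WT. All 6 KO mice were above all 6 WT mice, which was true of 1 of 40 members and 0.529% of all genes. Mybph was 2.28-fold higher in KO averaged over diets, a log2 difference of 1.19 ± 0.20 (limma adjusted p = 0.0118). It was 2.96-fold higher on HFD (1.57 ± 0.29, adjusted p = 0.0284), and on ND the difference was 0.81 ± 0.29 (adjusted p = 0.285). The difference between these effects was not called (interaction 0.75, limma adjusted p = 0.531).

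Mybph was the only member called for genotype. On HFD 1 of 40 members was called where 0.732% of all genes were (0.511% higher), on ND 0 of 40 where 0.414% were, and averaged over diets 1 of 40 where 1.61% were (0.899% higher). On HFD 3 members were higher and 6 lower in KO without overlap, against 11% and 8.39% of all genes, and on ND 6 were higher and 3 lower, against 9.25% and 7.72%. An unadjusted p under 0.05 in limma was reached by 8 members on HFD and 6 on ND, and by 14.8% and 11.3% of all genes. The median genotype difference over the members was -0.06 on HFD and 0.01 on ND, and over all genes 0.03 on HFD and 0.02 on ND. The averaged Mybph call held without each mouse in turn and was lost only without the intensity trend (adjusted p = 0.0585). The call on HFD was lost without KO HFD mouse 1, KO HFD mouse 3, WT HFD mouse 1 or WT HFD mouse 3 (adjusted p 0.0736 to 0.14), and also without the intensity trend or with only the groups compared (adjusted p 0.085 and 0.0703). Markers of other cell types were summed beside it. The summed linear signal of the 5 fibroblast markers measured, of 6 listed, was 10044 to 13302 in KO HFD and 6419 to 9014 in WT HFD, and on ND it was 8066 to 8476 in KO and 7577 to 8378 in WT. The 7 macrophage markers, all measured, summed to 3447 to 6001 in KO HFD and 1842 to 3919 in WT HFD, and to 2302 to 3029 in KO ND and 3132 to 3576 in WT ND. The 3 nerve and Schwann cell markers measured, of 6 listed, summed to 870 to 1421 in KO HFD and 663 to 847 in WT HFD, and to 1195 to 1309 in KO ND and 755 to 1024 in WT ND. This sum was thus higher in KO without overlap on both diets, as Mybph was, and the fibroblast sum on HFD alone. The 7 endothelial and smooth muscle markers, all measured, summed to 2045 to 3274 in KO HFD and 1697 to 2069 in WT HFD, and to 1990 to 2300 in KO ND and 1240 to 1979 in WT ND. The 5 adipocyte markers measured, of 7 listed, summed to 15543 to 17192 in KO HFD and 8589 to 15447 in WT HFD, and to 7088 to 11187 in KO ND and 7544 to 9182 in WT ND. The endothelial and smooth muscle sum was higher in KO without overlap on ND and the adipocyte sum on HFD. In the other direction, the macrophage sum was lower in KO without overlap on ND. Of the 7 endothelial and smooth muscle markers, 6 had higher means in KO ND than in WT ND. The largest difference was in the smooth muscle gene Acta2 (9.99 against 9.25), while the endothelial gene Pecam1 was lower (6.60 against 6.83). None of the markers summed was at 0, and their part in the Mybph difference was not tested.

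**Figure D2:**
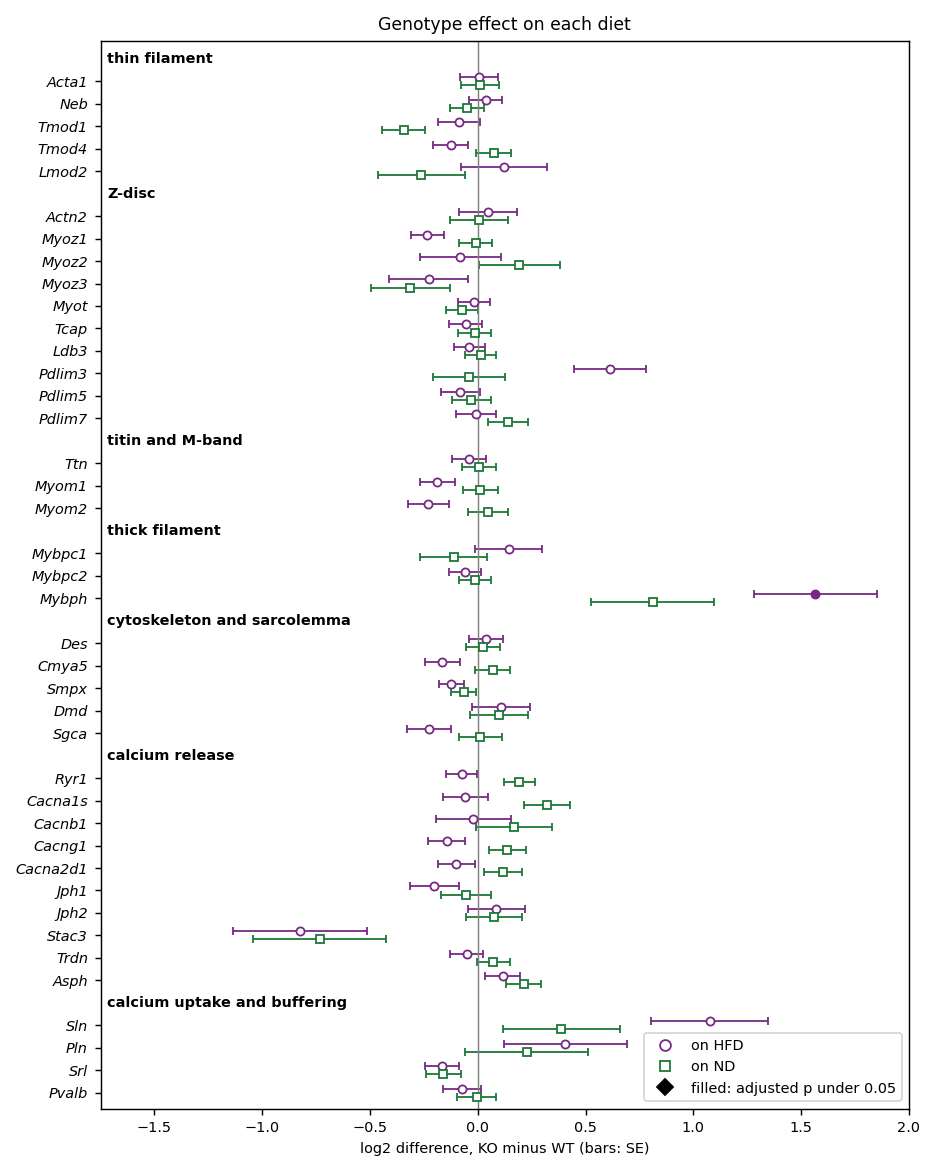
Log2 difference of KO minus WT for the 40 members, grouped by role, on HFD (purple circles) and ND (green squares), with bars of 1 SE and filled symbols for an adjusted p under 0.05. The only filled symbol is that of Mybph on HFD, at 1.57.

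The myosin-binding proteins C differed less. Fast-type Mybpc2 had 13.32, 13.44 and 13.44 in KO HFD, 13.19, 13.41 and 13.25 in KO ND, 13.38, 13.44 and 13.56 in WT HFD, and 13.33, 13.25 and 13.30 in WT ND. The diets overlapped in KO and not in WT. The averaged diet difference was 0.14 ± 0.05 (limma adjusted p = 0.0843), called without KO ND mouse 2 (0.17, adjusted p = 0.0403). Slow-type Mybpc1 differed by 0.25 ± 0.16 with diet in KO and by -0.00 ± 0.16 in WT.

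Links between the sarcomere and the surface membrane gave no call. Sgca, the alpha subunit of the sarcoglycan complex that stabilises dystrophin at the sarcolemma, had 9.86, 10.18 and 10.13 in KO HFD, 9.95, 10.09 and 9.95 in KO ND, 10.16, 10.29 and 10.41 in WT HFD, and 10.02, 9.93 and 9.99 in WT ND. The WT HFD mice were above the WT ND mice, by 0.30 ± 0.10 (limma adjusted p = 0.0899), and the KO diets overlapped. Its averaged difference of 0.19 ± 0.07 was not called (adjusted p = 0.103), but was without KO HFD mouse 1 (0.23, adjusted p = 0.0364). Cmya5 (myospryn, a desmin-binding protein at the costamere) was higher in WT HFD by 0.26 ± 0.08 without overlap (adjusted p = 0.0831), a difference called without KO ND mouse 2 (adjusted p = 0.0479), as was its averaged difference (0.18, adjusted p = 0.0398). Smpx, a small muscle-specific protein, was higher without overlap in HFD mice of both genotypes, by 0.05 in KO and 0.11 in WT, not called. Desmin (Des), the intermediate filament that ties Z-discs together, differed by 0.05 averaged over genotypes, with a 95% interval of -0.07 to 0.17. Dmd, dystrophin, differed by -0.04 ± 0.09.

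The calcium release genes had positive diet differences in WT, though 1 of 10 was called there. All 10 had a positive diet difference in WT, with a median of 0.24, and 4 of 10 in KO, with a median of -0.02. Over all genes, 57.5% were positive in KO and 55.3% in WT. The interaction was negative for 9 of 10, with a median of -0.17, and 0 of the 10 were called for it, as for all 40 members (limma, where 0.141% of all genes were called and an unadjusted p under 0.05 was reached by 4 members and 10.4% of all genes). After quantile normalization 9 of 10 were positive in WT with a median of 0.15, and after median centring 9 of 10 with a median of 0.20. Median centring moved the diet difference of the median gene in KO by -0.12. Positive diet differences in WT were not particular to these 10 genes. They were found in 23 of 29 other calcium release and uptake genes tested (median 0.23) and 9 of 9 fast contractile genes (0.14). The same held for 7 of 8 slow contractile genes (0.33) and 8 of 8 skeletal muscle markers (0.16). Among other sarcomere scaffold genes, 18 of 39 were positive (-0.10). In KO these counts were 22, 9, 6, 7 and 20.

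Cacna1s, the pore subunit of Cav1.1 and the voltage sensor of the junction, was called for diet in WT. Its log2 signals were 10.60, 10.42 and 10.51 in KO HFD, 10.43, 10.39 and 10.64 in KO ND, 10.50, 10.78 and 10.43 in WT HFD, and 10.17, 10.24 and 10.10 in WT ND. The 3 WT ND mice were below the other 9, as deposited and after quantile normalization but not after median centring. It rose by 0.40 ± 0.10 in WT HFD, or 1.32-fold (limma adjusted p = 0.0392), and differed by 0.02 ± 0.10 in KO (interaction -0.38, adjusted p = 0.392). The call was lost without any of the 3 WT ND mice, without WT HFD mouse 1 or 2, or without KO HFD mouse 3 (adjusted p 0.0552 to 0.144). It was also lost with no filter on low values, after median centring, without the intensity trend, with only the groups compared and when the 3′ over 5′ ratio was in the model (adjusted p 0.0536 to 0.31), and it held under 11 of 22 alternatives. On ND, in a comparison that shares the WT ND mice, KO was higher by 0.32 ± 0.10, not called (adjusted p = 0.253).

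Ryr1, the calcium release channel itself, showed the same low WT ND mice without a call. Its signals were 13.09, 13.14 and 13.08 in KO HFD, 13.11, 13.24 and 13.03 in KO ND, 13.07, 13.22 and 13.25 in WT HFD, and 12.94, 12.88 and 12.97 in WT ND. The WT ND mice were below the other 9 under each of the 3 scalings. As deposited, 2 of 40 members (Ryr1 and Cacna1s) and 3.13% of all genes held that position. The diet difference of Ryr1 was -0.02 ± 0.07 in KO and 0.25 ± 0.07 in WT (limma adjusted p = 0.0566). The WT difference was called with a stricter filter (adjusted p = 0.0496) and without WT HFD mouse 1 (0.30, adjusted p = 0.0448) or KO ND mouse 2 (0.25, adjusted p = 0.0444). The auxiliary Cav1.1 subunits Cacnb1 (beta), Cacng1 (gamma) and Cacna2d1 (alpha2-delta) had WT diet differences of 0.11, 0.26 and 0.12 and KO diet differences of -0.08, -0.02 and -0.10, none called. The adaptor Stac3, which Cav1.1 needs in order to reach and work at the junction, was lower in KO by a log2 difference of -0.78 ± 0.22 averaged over diets, not called (adjusted p = 0.0952), with an SD of 0.62 in KO ND and 0.60 in WT ND. Without KO ND mouse 2 it was called (-0.94, adjusted p = 0.0409).

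Junction proteins supplied both other diet calls. Junctophilin 2 (Jph2) bridges the transverse tubule and the sarcoplasmic reticulum. Its log2 signals were 10.01, 10.21 and 10.22 in KO HFD and 9.87, 9.81 and 9.56 in KO ND. In WT they were 9.81, 10.18 and 10.19 on HFD and 9.88, 9.52 and 9.61 on ND. The KO diets did not overlap, while 1 WT HFD mouse was below 1 WT ND mouse. Jph2 rose by 0.39 ± 0.09 averaged over genotypes, or 1.31-fold (limma adjusted p = 0.0138), with 0.40 in KO and 0.39 in WT, neither called alone (adjusted p = 0.1 and 0.0945), though the WT difference was without WT ND mouse 1 (0.49, adjusted p = 0.0468). The call held without each mouse in turn. It was lost when the mean of both Jph2 probe sets was used (0.22, adjusted p = 0.237), the dimmer of which differed by 0.05.

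Triadin (Trdn) anchors calsequestrin to the ryanodine receptor. Its signals were 13.14, 13.12 and 13.14 in KO HFD, 13.01, 13.14 and 12.89 in KO ND, 13.07, 13.20 and 13.28 in WT HFD, and 13.01, 12.86 and 12.95 in WT ND. The diets overlapped in KO and not in WT. Trdn rose by 0.18 ± 0.05 averaged over genotypes (limma adjusted p = 0.0419). The call was kept without KO ND mouse 2, WT HFD mouse 1 or WT ND mouse 1 and lost without any of the other 9 mice (adjusted p 0.0624 to 0.104), and it was lost under 6 of the other 9 alternatives (adjusted p 0.0569 to 0.343). These were no filter, quantile normalization, median centring, the mean of all probe sets, no intensity trend, and the 3′ over 5′ ratio in the model. With the mean of all probe sets Trdn was instead called for diet in WT (0.40, adjusted p = 0.0459). Jph1, the other skeletal muscle junctophilin, differed by 0.16 ± 0.08 and Asph, whose products include the triadin partner junctin, by -0.05 ± 0.06, neither called.

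**Figure D3:**
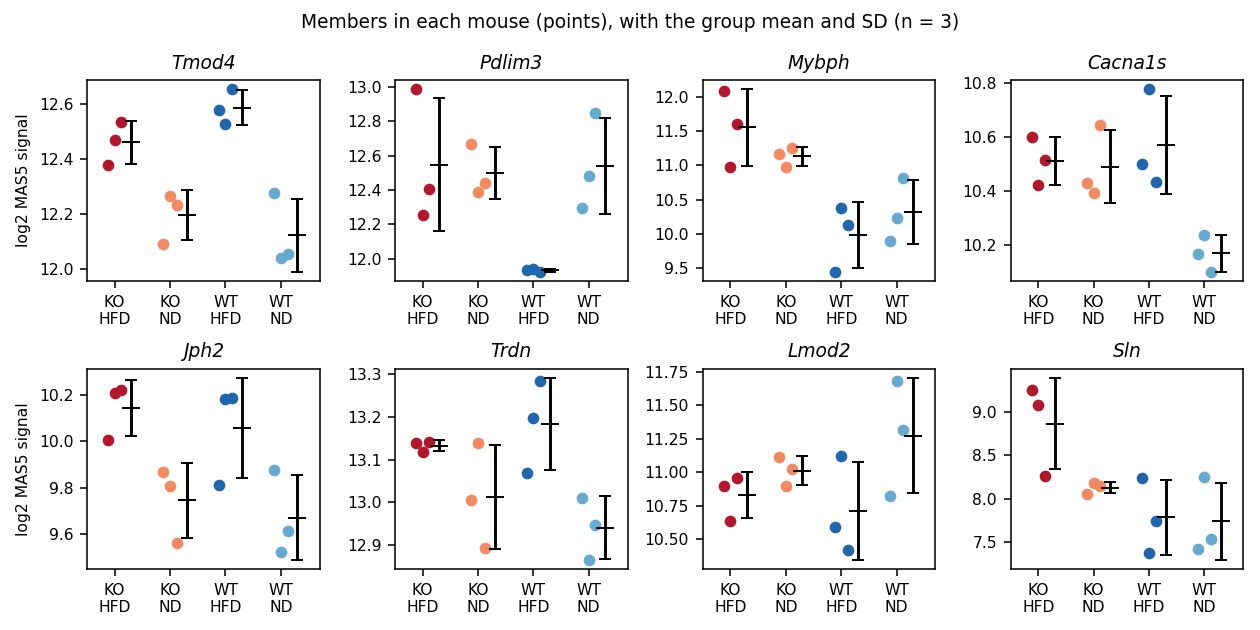
Log2 signal of 8 members in each mouse of the 4 groups (KO HFD, KO ND, WT HFD and WT ND), with the mean and SD of the 3 mice beside the points. Tmod4 separates HFD from ND, Mybph separates KO from WT, Pdlim3 is low in WT HFD, and Cacna1s is low in WT ND.

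None of the 4 calcium uptake and buffering genes was called in any comparison. Sarcolipin (Sln), a small membrane peptide that lowers the efficiency of SERCA, had 9.25, 9.07 and 8.27 in KO HFD, 8.06, 8.18 and 8.14 in KO ND, 8.24, 7.38 and 7.74 in WT HFD, and 7.43, 8.25 and 7.54 in WT ND. The 3 KO HFD mice were above the other 9, a position held by 1 of 40 members and 4.14% of all genes, but not after median centring. On HFD, KO was 2.11-fold higher (log2 difference 1.08 ± 0.27, limma adjusted p = 0.0788), and averaged over diets the difference was 0.73 ± 0.19 (adjusted p = 0.0773). The averaged difference was called without KO HFD mouse 3 (0.88, adjusted p = 0.0305), and that on HFD once the 3′ over 5′ ratio was in the model (1.11, adjusted p = 0.0341). Phospholamban (Pln), the SERCA inhibitor of heart and slow muscle, had an averaged genotype difference of 0.32 ± 0.20. Srl, the luminal calcium-binding protein sarcalumenin, and Pvalb, the cytosolic calcium buffer parvalbumin of fast fibres, had averaged diet differences of 0.15 ± 0.06 and 0.12 ± 0.06. That of Srl was called with array weights (0.17, adjusted p = 0.0467) and without KO HFD mouse 1 (0.19, adjusted p = 0.0304).

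Other probe sets of the members did not always give the same value as the brightest. In all, 89 probe sets were annotated to the 40 genes and 79 passed the filter, and 18 genes had several above it. A dimmer Dmd probe set was lower with HFD by a log2 difference of -0.82 in KO (limma adjusted p = 0.0141 over 22518 probe sets) and -0.56 averaged (adjusted p = 0.00651), where the brightest gave -0.03 and -0.04. Dimmer probe sets of Cacnb1 and Mybpc1 were higher with HFD by 0.60 and 0.64 averaged (adjusted p = 0.0192 and 0.0418), against 0.02 and 0.12 for the brightest. A dimmer Asph probe set gave 0.66 for diet in KO (adjusted p = 0.0499), against -0.10. Which transcripts these probe sets detect was not analysed here. The 5 dimmer Trdn probe sets gave averaged diet differences of 0.04 to 0.33, none called.

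**Figure D4:**
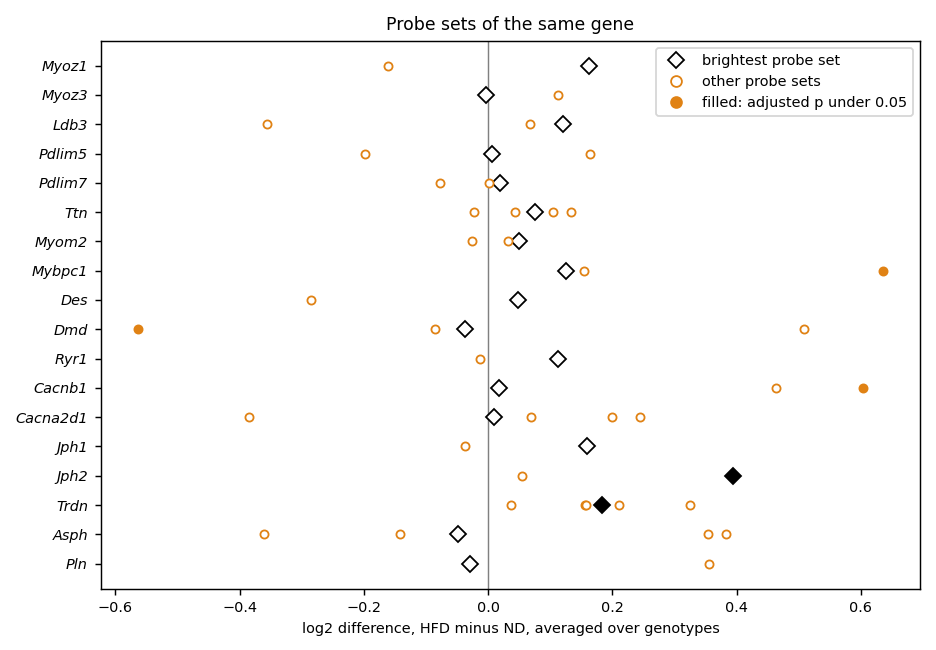
Averaged log2 difference of HFD minus ND for each of the 57 probe sets above the filter in the 18 members that have several, with diamonds for the brightest probe set of each gene. Probe sets of the same gene lie apart from one another in several genes, among them Dmd, Cacnb1, Mybpc1, Jph2, Asph, Cacna2d1 and Ldb3.

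Neighbouring genes of the same structures, listed with earlier results of these data known, were also measured. Of 45 other sarcomere scaffold genes, 39 were tested, and averaged over genotypes 4 rose and 8 fell with HFD, where 13.7% of all genes were called (7.49% higher and 6.19% lower). Sspn and Sgcb, partners in the dystrophin complex, Cav3, the muscle caveolin, and Tln2, which links integrins to actin, rose by 0.44, 0.26, 0.39 and 0.32. Xirp1, an actin-binding protein of cell junctions, fell by 1.54, Klhl40, which stabilises nebulin and leiomodin 3, by 1.31, Filip1 by 0.91 and filamin C (Flnc) by 0.64. In KO, where 4.54% of all genes were called, Filip1 fell by 1.11 and Cavin4 by 0.64. There Vim (the mesenchymal filament vimentin) rose by 0.61 and Sspn by 0.49. In WT, where 6.06% of all genes were called, Klhl40 fell by 1.86, Xirp1 by 1.72 and Filip1 by 0.71. Tln2 rose there by 0.48. For genotype, Vim was the gene called, higher in KO by 0.88 on HFD and by 0.53 averaged over diets. Of all genes, 0.732% and 1.61% were called in these comparisons.

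Of 34 other calcium release and uptake genes, 29 were tested, and averaged over genotypes 6 rose and 1 fell with HFD, against the same shares of all genes. Casq2, the slow and cardiac calsequestrin, rose by 0.79, Sypl2 (the junctional protein mitsugumin 29) by 0.53, sorcin (Sri) by 0.44 and Orai1, the store-operated calcium channel, by 0.32. Rcan1, a calcineurin inhibitor, fell by 1.21. In KO, where 4.54% of all genes were called, Casq2 rose by 1.08 and Sypl2 by 0.65. In WT, 0 of the 29 were called by limma, and 11 had an unadjusted p under 0.05, where 23% of all genes did. Casq2 was also higher in KO than in WT, by 1.04 on HFD and by 0.74 averaged over diets. Of all genes, 0.732% and 1.61% were called there.

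Fibre type genes were measured beside these. Of 9 fast contractile genes, Myh2 (the IIa myosin heavy chain) rose with HFD by 0.34 averaged over genotypes, where 7.49% of all genes were higher. Of 8 slow contractile genes, Myl3, Myl2 and Tnnc1 rose with HFD in WT, by 0.53, 0.42 and 0.39, where 3.07% of all genes did. Myl3, Myh7 and Myl2 were higher in KO averaged over diets, by 0.48, 0.40 and 0.36, where 0.899% of all genes were. Myl3 was also higher in KO on ND, by 0.73, where 0.414% of all genes were called. Tnnc1 rose by 0.34 with HFD averaged over genotypes. The summed linear signal of the 8 slow genes was 19896 to 26328 in KO HFD, 20653 to 22813 in KO ND, 18874 to 21519 in WT HFD and 13374 to 17115 in WT ND. The WT ND mice were the lowest in this sum, as they were for Ryr1 and Cacna1s, and whether fibre make-up had a part in those differences was not tested.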

How the data were processed

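Muscle total RNA of 12 mice was biotin-labelled and hybridised to Affymetrix arrays, per the labels. The authors computed log2 signals with MAS5, per the submitters' processing notes, and no version of it is named in the sources used here. The deposited log2 values were used unchanged. The trimmed mean of the linear values, between the 2nd and 98th percentile, was the same on all 12 arrays (100.002), so they were scaled before deposit. With no counts, the number of arrays limits the precision.

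The table listed 45101 probe sets. Leaving out 64 controls left 45037, and 34945 of these had a single gene symbol, 932 had several and 9160 had none. Probe sets with a mean log2 signal above 3.78 (the median, 13.8 linear) were kept, 22518 in all, and the brightest per gene stood for it. One linear model over the 12 arrays, moderated by empirical Bayes with an intensity trend, was fitted in limma 3.58.1 (R 4.3.3) with 8 residual and 5.42 prior degrees of freedom. Its 7 contrasts were HFD minus ND in KO and in WT, KO minus WT on HFD and on ND, both averages and the interaction, each adjusted by Benjamini-Hochberg over all 11345 genes at a threshold of 0.05. The code was tested on simulated data. Whether the 3 mice of a group came from separate litters is not stated. The p-values rest on the spread between mice within groups, pooled over all 12 arrays and moderated by empirical Bayes.

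Members and gene lists were chosen with earlier results of these data known. Per-mouse values are given for members called in any contrast and for the member of each role with the largest averaged diet difference. Values of Myoz1, Ryr1 and Myom1 were added after they were seen. In the other lists up to 4 called genes per direction and contrast are named. Alternatives were other offsets and filters, quantile normalization, median centring, the mean of a gene's probe sets, array weights, a fit without the intensity trend, a fit of only the groups compared, a fit with the 3′ over 5′ ratio in the model, and each mouse left out; non-overlap counts under other scalings were added after seeing the data. Promoters came from RefSeq (GRCm38.p6). Python 3.11.15, pandas 2.3.3 and matplotlib 3.10.9 were used for tables and plots.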

Additional observations from a re-analysis of the deposited data

How the results depend on the processing

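The number of members called for diet in WT was 3; it was 1 with no filter on low values, 1 without the intensity trend, 1 when the 3′ over 5′ ratio was in the model and 5 with a stricter filter, and 1 to 5 with a mouse left out. It was 1 without WT ND mouse 2, WT ND mouse 3, WT HFD mouse 2 or KO HFD mouse 3 and 5 without KO ND mouse 2. The count over all genes also changed. It was 687 in the main fit, 548 with no filter, 311 without the trend, 186 with the ratio and 745 with the stricter filter. It was 199 without WT ND mouse 2, 256 without WT ND mouse 3 and 303 without WT HFD mouse 2. Without KO HFD mouse 3 it was 554, and without KO ND mouse 2 it was 601. For the averaged diet effect the member count was 3, against 5 with array weights and 1 with the mean of all probe sets. It was 2 to 6 with a mouse left out (6 without KO ND mouse 2, 5 without KO HFD mouse 1). Over all genes the averaged count was 1552, against 1869 with array weights and 1384 with the mean of all probe sets. Without KO ND mouse 2 it was 1146, and without KO HFD mouse 1 it was 1402. In KO array weights gave 2 diet calls among the members, Tmod4 and Jph2, instead of 0. Over all genes array weights gave 881 instead of 515. On HFD the genotype count of members was 1, against 0 without the intensity trend and 0 with only the groups compared. It was 2 with the ratio in the model and 0 to 1 with a mouse left out. Over all genes it was 83, against 7 without the trend, 29 with only the groups compared and 95 with the ratio. Averaged over diets the genotype count of members was 1, against 0 without the trend and 1 to 2 with a mouse left out. Over all genes it was 183, against 61 without the trend. The cause of these changes was not tested. For the genotype effect on ND and the interaction, each alternative kept the main member count of 0. No member result in these comparisons changed direction past its threshold; counting every member, contrast and alternative, 5968 values kept their call status, 25 gained a call and 47 lost one.

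Median centring moved the median of all genes by -0.12 for diet in KO. No paired analysis was possible because the mouse numbers do not repeat between groups. The arrays limit the precision to 3 mice a group, and signals near the upper end of the scale may hide differences; this was not tested.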
